A study of Drosophila melanogaster with 4 samples.

Results

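SPoCk is the gene for the secretory pathway calcium pump of Drosophila melanogaster. Its transcript structures were examined in testes by long-read RNA sequencing (PacBio Iso-Seq, which reads the cDNA of a polyadenylated transcript from end to end). The isoforms were taken by 1 rule, that they lie on the plus strand and overlap by an exon the RefSeq span of SPoCk (3L, 22749444 to 22787631, Release 6 coordinates, 38188 bp). The rule found 20 isoforms among the 40180 of the catalogue. All 20 belonged to 1 locus, all were spliced and all 20 carried a predicted coding sequence (CDS). The gene itself was chosen by a measured value, its number of isoforms from first exons inside the gene, so the counts of starts below are a description and were not tested.

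The samples were testes of bamGAL4/ KmgRNAi males, in which an RNAi construct against kmg was carried together with the bamGAL4 driver (2 samples), and testes of bamGAL4 males with the driver alone as control (2 samples). The driver, shared by both groups, uses the promoter of bam, a gene active in spermatogonia. Each sample pooled 150 pairs of testes from males 0 to 2 days old, after 3 days of egg laying at 25 °C and development at 29 °C. The data are 1 catalogue of transcript models merged from all 4 samples, in which 0 lines name a sample or condition, so that no SPoCk isoform can be set to the knockdown or to the control. The depth of each sample and the number of reads behind each isoform are unknown, a count of isoforms is not a level, and nothing below has replicates. As a check of the tissue, all 9 germline genes of a marker list (bam, topi, can, aly, bol, twe, Mst77F, Mst87F and dj) and all 3 cyst cell genes (zfh1, eya and tj) had isoforms. Of 3 accessory gland genes, Acp26Aa had 1 isoform, Acp36DE had 3 and Acp70A had 0. Whether accessory gland RNA contributed to the SPoCk isoforms was not tested.

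Secretory pathway calcium ATPases belong to the P-type pumps, which pass a phosphate from ATP onto an aspartate of their own chain while they move an ion across a membrane. They load calcium and manganese into the Golgi, where manganese serves enzymes that add sugars to proteins, and loss of 1 copy of the human gene ATP2C1 causes the skin blistering disorder Hailey-Hailey disease. In Drosophila, protein variants of SPoCk with different N termini have been described at different membranes of the cell. RefSeq holds 8 transcripts and 8 proteins of the gene. No sequence is printed here, since only gene spans and transcript models were used.

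The 20 isoforms started in 5 groups spread over 34155 bp (starts up to 100 bp apart were joined). A start here is the listed 5′ end of a model. Whether it was a transcription start or the 5′ end of an incomplete cDNA was not tested. The first group, at the outer 5′ end of the gene, held 2 isoforms, the second 9, the third 4, the fourth 2 and the fifth 3. The largest group, 45.0% of the isoforms, thus began 10500 bp inside the annotated gene, and 18 of 20 isoforms began away from the outer end. The first exon of 15 isoforms lay wholly inside an intron of an isoform with an earlier start, and the 3 isoforms of the fifth group began inside an exon of earlier-starting ones. Of the 15, 13 were joined to an acceptor that an earlier-starting isoform also used, and 2 to an acceptor of their own.

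**Figure D1:**
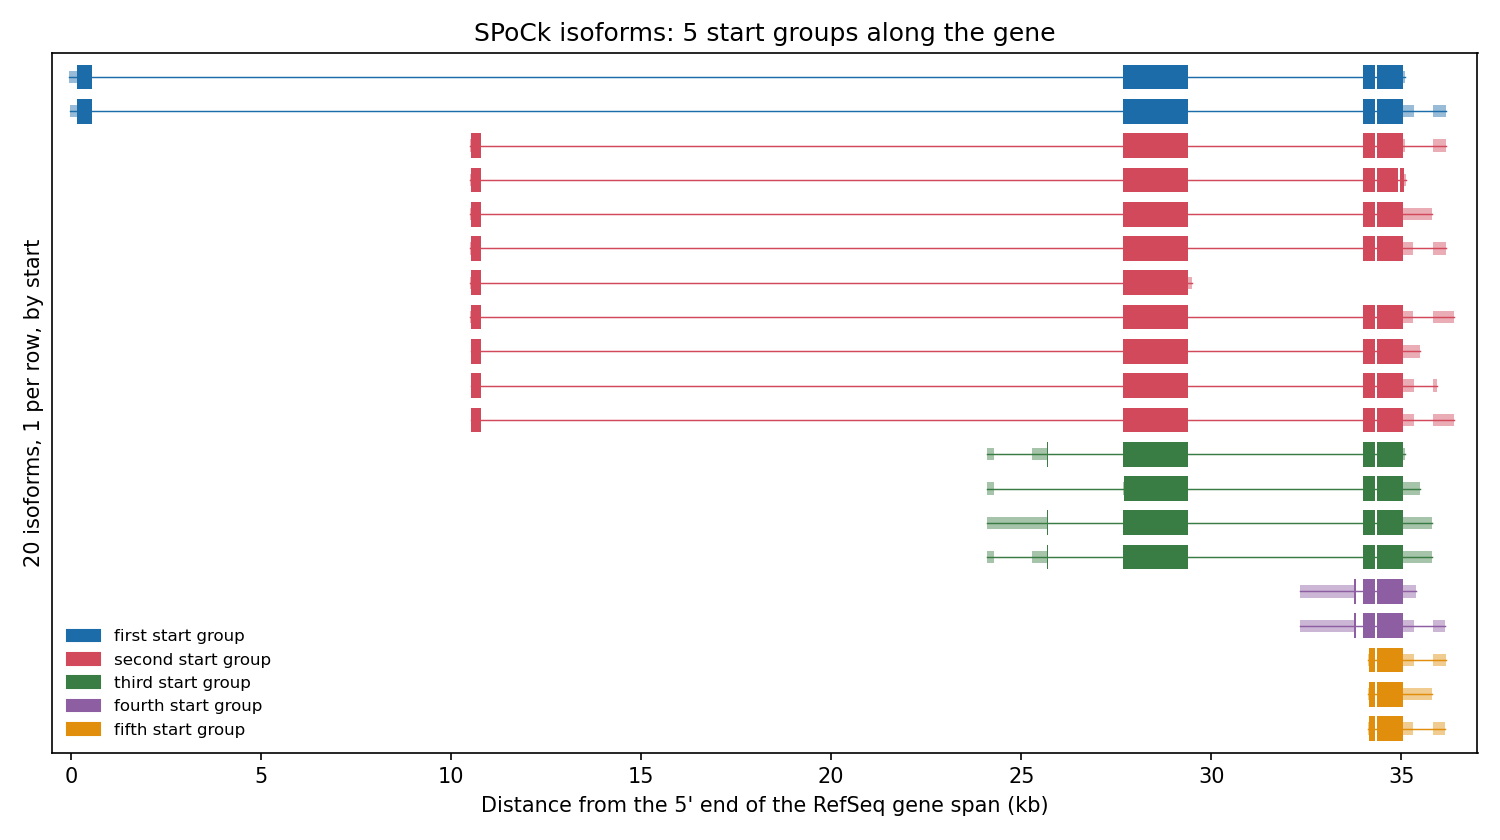
The 20 SPoCk isoforms, 1 per row in order of start, against the distance in kb from the 5′ end of the RefSeq span; tall blocks are CDS, low pale blocks are untranslated exon and lines are introns, and colour marks the 5 start groups. The 9 isoforms of the second group start 10.5 kb inside the gene and share every coding exon past their own first exon with the first group, apart from 2 isoforms whose CDS is altered at the 3′ side.

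The first group began at 22749396, which is 48 bp upstream of the annotated end, and at 22749425. Both isoforms ended their first exon at the donor 22749992 and crossed an intron of 27118 bp to the acceptor 22777111. Introns at least this long made up 1.14% of the 44300 distinct introns of the catalogue, whose median was 83 bp. The CDS began at 22749618 in both isoforms and gave the longest reading frame of the gene, 3105 bp or 1035 codons, of which the first exon contributed 375 bp or 125 codons. The 5′ untranslated region (UTR) measured 222 and 193 nt.

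The second group began at 22759944 to 22759960, with 5 distinct positions over 16 bp. All 9 isoforms used the donor 22760240 and an intron of 16870 bp to the same acceptor, 22777111. Their CDS began at 22759977, so the 5′ UTR was 17 to 33 nt long with a median of 29 nt. A 5′ UTR shorter than that median was found in 3.97% of the 36534 coding isoforms of the catalogue, whose median was 223 nt. The first exon supplied 264 bp of coding sequence, or 88 codons, 37 fewer than in the first group. In 7 of the 9 isoforms the CDS was 2994 bp (998 codons), and the other 2 differed at their 3′ side.

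The third group began at 22773538 in 3 isoforms and at 22773539 in 1, and it spliced its 5′ part in 3 ways. In G8186.30 and G8186.35 a first exon of 179 and 178 bp was joined to a 400 bp exon (22774738 to 22775137), which occurred in no other start group and used the acceptor of its own mentioned above. In G8186.34 the intron of 1021 bp between these exons was retained, which gave a single first exon of 1600 bp. All 3 began their CDS at 22775114, so that only 24 bp, or 8 codons, preceded the shared acceptor, and the frame was 2754 bp (918 codons). In G8186.32 the 400 bp exon was skipped, and the CDS began at 22777135, inside the shared exon, with 2706 bp (902 codons). The skip therefore removed the 8 codons of the 400 bp exon and 8 codons of the shared exon. The 5′ UTR was 203 nt in the skipped form, 555 and 554 nt in the forms with the exon, and 1576 nt with the intron retained.

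From the acceptor 22777111 onward the first 3 groups shared 1 coding body of 2730 bp, or 910 codons, in 3 exon parts of 1714, 316 and 700 bp. The 3 parts lay at 22777111 to 22778824, 22783420 to 22783735 and 22783788 to the stop at 22784487. The coding parts ahead of that acceptor had lengths divisible by 3 (375, 264 and 24 bp), and the deposited reading frame at 22777111 was 0 in all 14 isoforms whose CDS crossed that junction. The N-terminal versions from these 3 groups thus carried 125, 88 or 8 codons ahead of the same body, or lacked the first 8 codons of it. Of the 15 isoforms in the first 3 groups, 13 ran to the stop at 22784487, and 12 of those contained all 910 shared codons. Codon numbers follow the listed CDS, and whether its last codon is the stop codon was not tested.

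**Figure D2:**
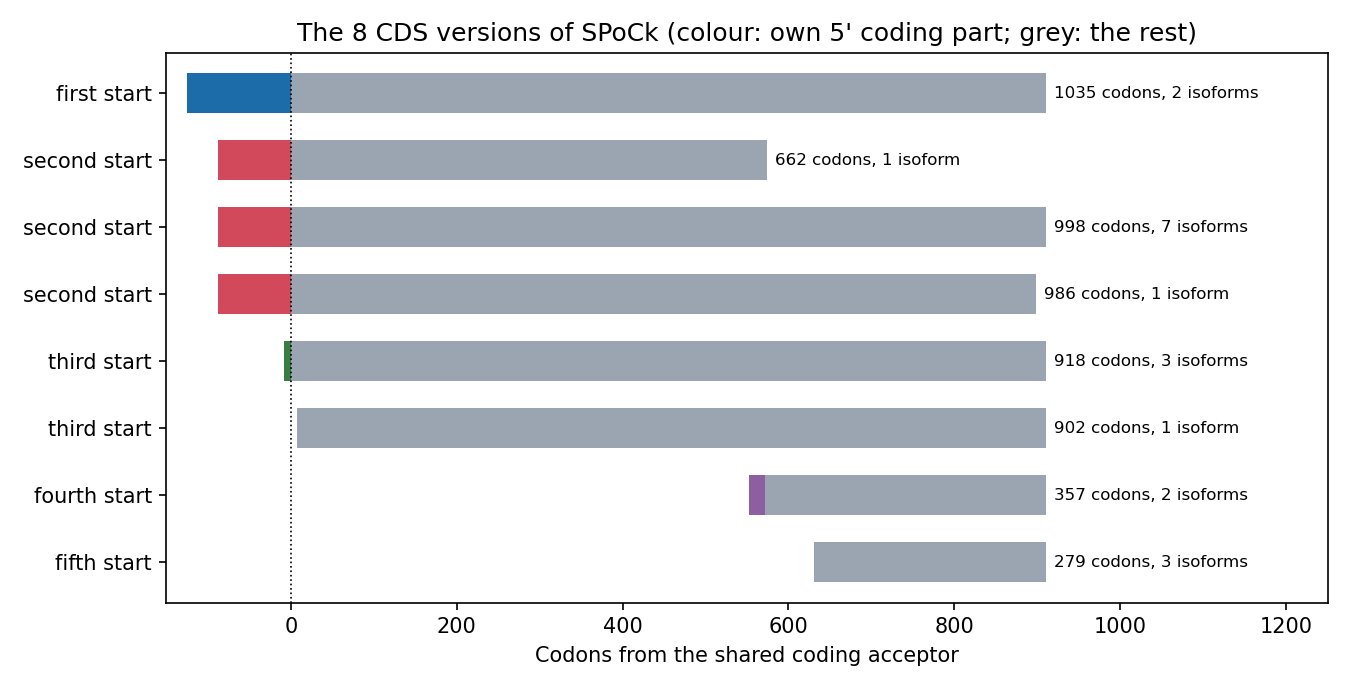
The 8 CDS versions of SPoCk as bars, in codons counted from the shared coding acceptor (0), with the number of isoforms of each; colour is the 5′ coding part that no other start group shares and grey is the rest. The 1035, 998 and 918 codon versions differ only left of 0 (125, 88 and 8 codons), whereas the fourth and the fifth start give 357 and 279 codons at the C-terminal side.

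The fourth and the fifth group left out most of that body. The fourth group began at 22781765 and 22781772, inside the intron of 4595 bp (22778825 to 22783419) that separates the 1714 bp exon from the 316 bp exon, 2941 and 2948 bp past its donor. Its first exon of 1474 or 1467 bp ended at the donor 22783238 and was joined across 181 bp to the 316 bp exon. The CDS began at 22783184, added 55 bp of its own and measured 1071 bp (357 codons, 34.5% of the longest CDS). The 5′ UTR of 1419 and 1412 nt was the longest of any group by its median, and 96.1% of coding isoforms in the catalogue had a shorter one than the group's median.

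The fifth group began at 22783551 in 1 isoform and at 22783562 in 2, at 131 and 142 bp inside the 316 bp exon. Its CDS began at 22783599, 48 or 37 nt after these starts, and measured 837 bp (279 codons, 27.0% of the longest). The 5 isoforms of these last 2 groups kept the reading frame of the long forms. The listed frame of the 316 bp part was 2 in all 16 isoforms with CDS from its first base, and the frame of the last shared part was 1 in all 19 isoforms that had it. The exon of 1714 bp, which the fourth and the fifth group lacked, held 62.8% of the shared coding body. Which segments of the pump it encodes was not analysed here.

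No CDS start was used from more than 1 start group, so the 6 CDS starts of SPoCk sorted completely by start group. Among the 940 other loci with at least 5 start groups, 61 (6.49%) had a CDS in every start group and no CDS start in common between groups. The set ran from 5 start groups, the number of SPoCk, up to 25, so the share does not speak for loci with exactly 5. In SPoCk each later start group began past every CDS start of the groups before it, so its models could not contain those CDS starts. The sorting therefore followed in large part from the start positions. Since SPoCk was chosen for its starts, the share is given as a description only.

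Downstream of the first exons the splicing of the coding body varied little. The intron of 52 bp between the 316 bp exon and the last coding exon (22783736 to 22783787) was spliced in all 19 isoforms that covered it, from all 5 start groups, and was retained in 0. It is among the shortest introns of the catalogue, of which 1.67% were shorter. The 4595 bp intron was spliced in all 14 isoforms of the first 3 groups that ran past it. Over the whole gene, 12 distinct introns were listed with 11 donors and 6 acceptors, and the 400 bp exon of the third group was the only internal exon that isoforms spanning it could skip.

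The reading frame was altered at its 3′ side in 2 isoforms, both of the second group. G8186.20 had only 2 exons, read 104 bp past the donor 22778824 and ended at 22778928 inside the 4595 bp intron. Its CDS stopped at 22778832, 8 bp past that donor, with 1986 bp (662 codons), 336 codons fewer than the 998 codon version, and without the 1016 bp of shared coding sequence behind the intron. That intron thus held both this early 3′ end and the starts of the fourth group. In G8186.14 an intron of 53 bp (22784361 to 22784413) was removed from the last coding exon, which 18 isoforms kept whole. A length of 53 bp is not divisible by 3, and the CDS of this isoform stopped at 22784504, 17 bp past the usual stop, with 2958 bp (986 codons), 12 codons fewer than the 998 codon version. The remaining 18 isoforms all stopped at 22784487. In all, SPoCk had 8 CDS versions with 6 starts and 3 stops.

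The 3′ ends of the transcripts fell into 9 clusters (ends up to 25 bp apart were joined). A 3′ end here is the listed 3′ end of a model. Whether it was the end of a finished transcript was not tested, also for the ends that lay inside an intron of another isoform. Besides the early end at 22778928, they lay at 22784543 to 22784559 in 3 isoforms, at 22784822 in 1, at 22784925 in 2 and at 22785235 to 22785236 in 4. Farther 3′ they lay at 22785377 in 1 isoform, at 22785578 to 22785579 in 2, at 22785612 in 4 and at 22785828 to 22785833 in 2. The ends past the usual stop thus ran from 56 to 1346 bp beyond it, and the farthest was 1798 bp short of the annotated 3′ end of the gene. Ends were shared between start groups in 5 of the 9 clusters.

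The clusters divided by splicing after the stop. In 9 isoforms an intron lay wholly behind the CDS, joined to the acceptor 22785283. Its donor was 22784764 in 5 isoforms from 4 start groups (an intron of 518 bp), 22784752 in 3 isoforms (530 bp) and 22784528 in 1 (754 bp), at 277, 265 and 41 bp behind the usual stop. All 9 isoforms that ended past 22785283 had this intron removed. The 10 other isoforms that ran past the usual stop all ended before 22785283, and 7 of them ended past the donor 22784764, within the stretch that the others spliced out. Retention of the whole intron up to an end beyond the acceptor was seen in 0 isoforms.

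**Figure D3:**
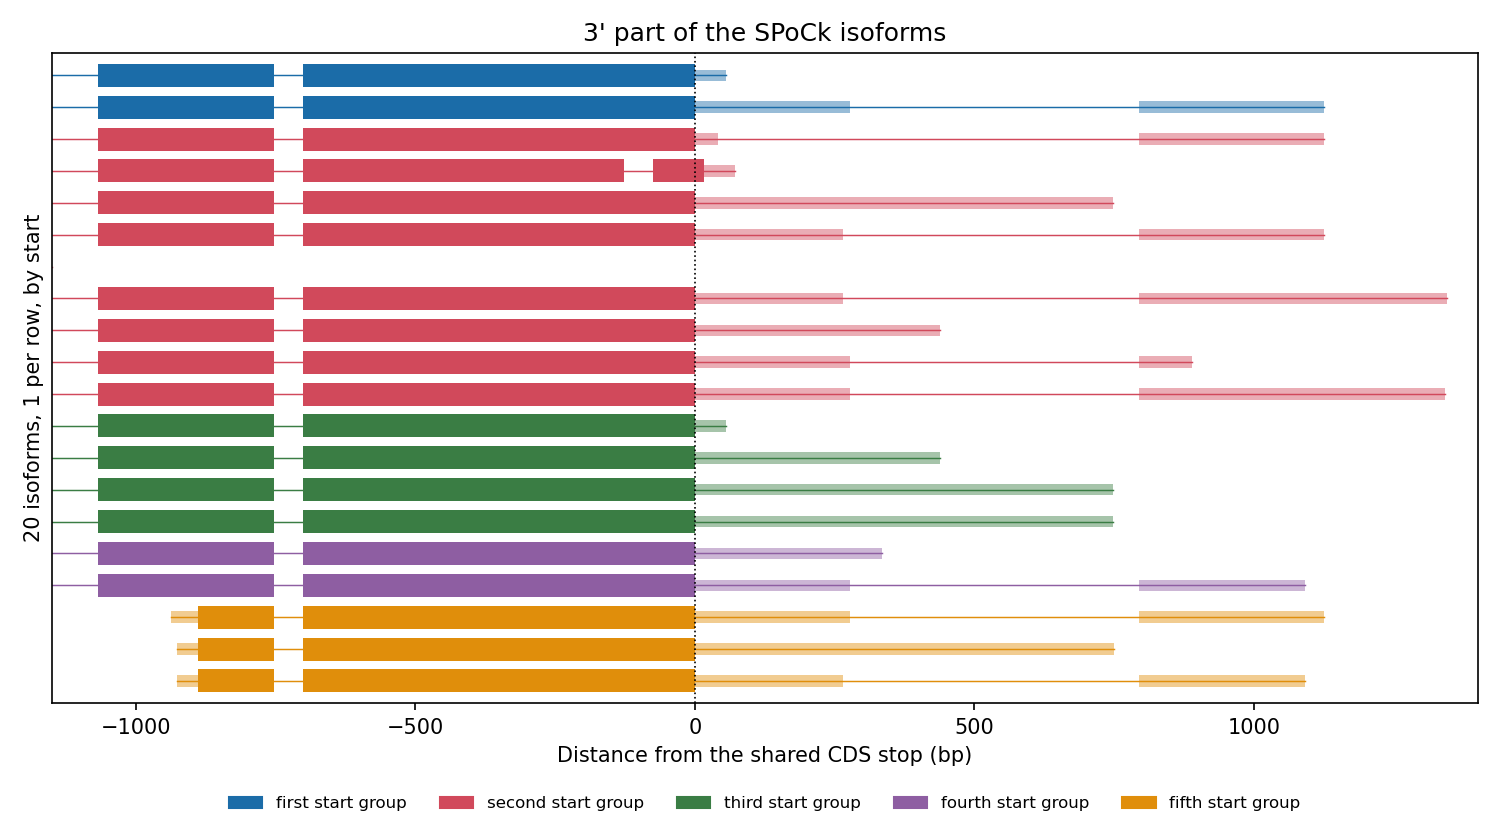
The 3′ part of the SPoCk isoforms, 1 per row in order of start, in bp from the shared CDS stop (dotted line at 0); tall blocks are CDS, low pale blocks untranslated exon, lines introns, and the row without blocks is the isoform with the early end. The 9 isoforms that end at 890 bp or farther all have an intron behind the stop, and the others end at 749 bp or before.

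The choice between these endings set the 3′ UTR. It measured 371 to 823 nt with a median of 595 nt in the 9 isoforms with the intron, and 55 to 749 nt with a median of 438 nt in the 10 without, so the ranges overlapped. The catalogue median was 222 nt. By start group, the intron was removed in 1 of 2 isoforms of the first group, 5 of 9 of the second, 0 of 4 of the third, 1 of 2 of the fourth and 2 of 3 of the fifth. With this few isoforms in each group, and with no read numbers, the groups were not compared further.

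**Figure D4:**
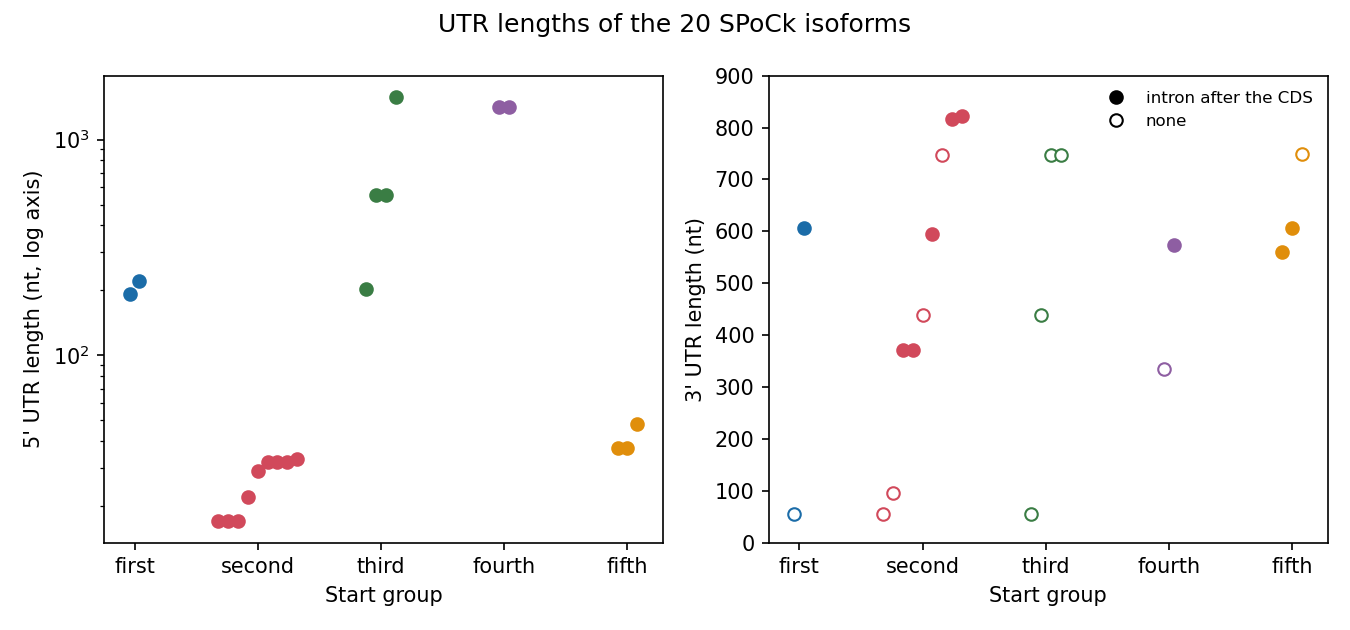
Length of the 5′ UTR (left, nt on a log axis) and of the 3′ UTR (right, nt) of each SPoCk isoform by start group; in the right panel filled points are isoforms with an intron behind the CDS and open points those without. The 5′ UTR of the second group lies at 17 to 33 nt and that of the fourth at 1412 and 1419 nt, while 3′ UTR lengths of the groups overlap.

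An intron behind the CDS was present in 45.0% of the SPoCk isoforms (9 of 20, 95% exact binomial interval 23.1 to 68.5) and in 8.17% of all coding isoforms of the catalogue (2984 of 36534). Of 7763 coding loci, 16.1% had such an intron in at least 1 isoform. A 3′ end inside an intron of another isoform of the gene occurred in 11 of the 20 SPoCk isoforms (55.0%, interval 31.5 to 76.9), the early end included, against 17.2% of the 37358 isoforms of loci with several isoforms. For 3 of the 11, with ends at 22784543 to 22784559, the only such intron was that of 754 bp, found in 1 isoform. The intervals treat the 20 isoforms as independent draws, but isoforms of 1 gene share exons and are not independent. They are therefore no test of SPoCk against the catalogue.

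Because a locus with many isoforms has more chances to show either feature, SPoCk was also set beside the 138 other loci with 18 to 22 isoforms. The share of coding isoforms with an intron behind the CDS was 45.0% in SPoCk, against a median of 5.56% in those loci, and 4 of the 138 had at least the share of SPoCk. The share ending in an intron of another isoform was 55.0%, against a median of 27.3%, and 35 of the 138 reached it. SPoCk had 9 clusters of 3′ ends against a median of 7, and 26 of the 138 loci had at least 9. Its 5 start groups were below the median of 7 of these loci, its 6 CDS starts stood beside a median of 5 and its 8 CDS versions equalled the median. Over all 9100 loci, 190 (2.09%) had at least 20 isoforms and 125 (1.37%) had at least 9 clusters of ends.

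**Figure D5:**
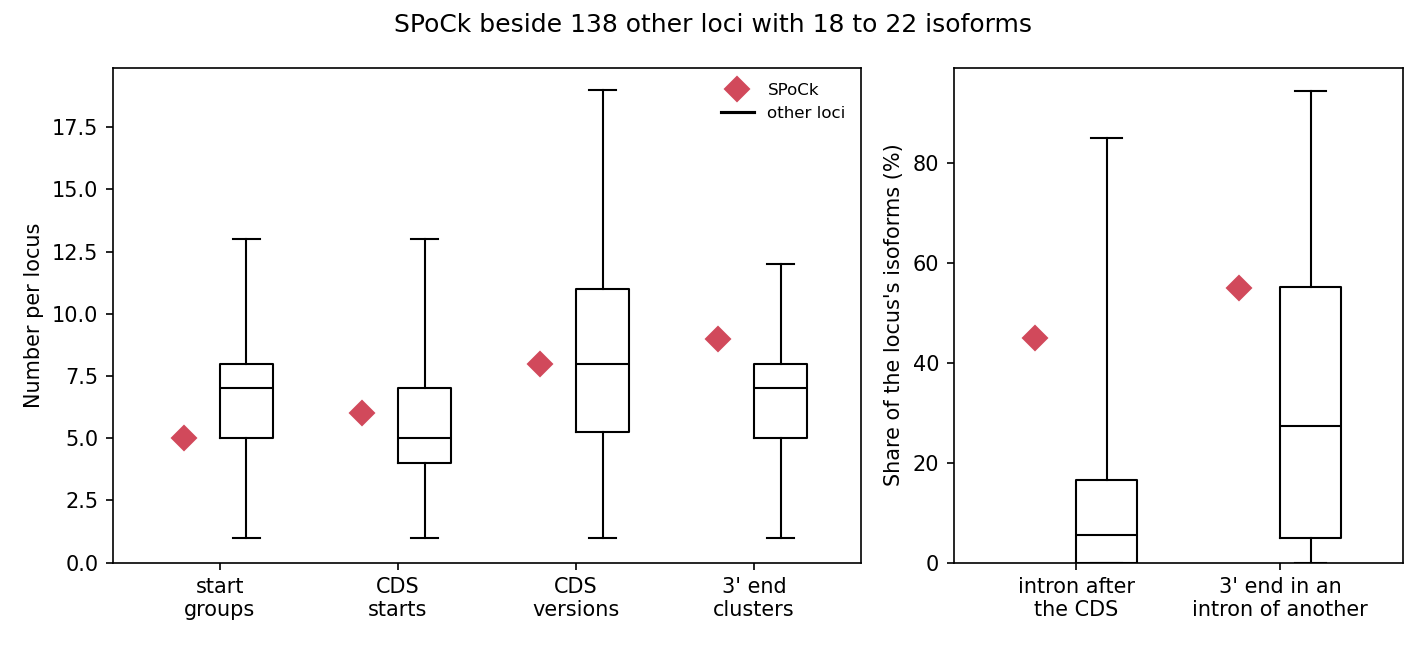
SPoCk (diamonds) and the 138 other loci with 18 to 22 isoforms (boxes from the first to the third quartile with the median, whiskers to the lowest and highest locus), as numbers per locus on the left and as shares of a locus's isoforms in percent on the right. SPoCk lies below the median for start groups (5 against 7) and far above it for introns behind the CDS (45.0% against 5.56%).

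SPoCk was set beside other P-type pump genes. Of 16 P-type ATPase genes on a list, SPoCk included, 7 received isoforms by name. Another 3 (PMCA, the plasma membrane calcium pump, JYalpha and anne) lie on chromosome 4, which was outside the chromosome arms whose genes were named. The remaining 6 had no named isoform. Of the 6, ATP8A was overlapped by 16 isoforms on either strand, CG31729 by 8, SERCA, the calcium pump of the endoplasmic reticulum, by 2 and CG45063 by 1, and these were left out of the following ranking because the naming rule gave them no isoform. Among the named genes, the 20 isoforms of SPoCk were followed by Atpalpha, the sodium pump subunit gene, with 15 isoforms, 2 start groups and 3 CDS starts. ATP7, a copper pump gene, had 11 isoforms with 3 start groups and 3 CDS starts, and ATP8B, a gene for a lipid flippase of this family, had 8 with 4 start groups and 5 CDS starts. CG6230 followed with 5 isoforms, 2 start groups and 2 CDS starts. None of the 6 named pump genes other than SPoCk had as many as 5 start groups or 6 CDS starts. Starts were not counted for ATP8A or the other unnamed genes. SPoCk was chosen for its starts and had the most isoforms of the named genes, and the counts were not adjusted for isoform number. They are therefore a description and do not set SPoCk apart from the other pumps.

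Of 14 genes for calcium stores and calcium entry, SPoCk, SERCA and PMCA included, 8 received isoforms by name while 5, SERCA among them, had overlapping isoforms but no named one. Trpm, a cation channel gene, also had 20 isoforms, with 8 start groups and 8 CDS starts, and Letm1, a gene of the inner mitochondrial membrane, had 15 isoforms with 7 start groups and 5 CDS starts. MCU, the mitochondrial calcium uniporter, had 9 isoforms with 3 start groups, and Cam, the calmodulin gene, had 8 with 3. The CDS of Cam was 450 bp in all of its coding isoforms, while that of SPoCk ranged from 837 to 3105 bp. The range was 558 to 5730 bp in Trpm, 522 to 3042 bp in Letm1 and 450 to 1374 bp in MCU, so a range of CDS lengths was not particular to SPoCk. In numbers of clusters of 3′ ends, Trpm had 6, Cam 4, and Letm1 and MCU 3 each, below the 9 of SPoCk.

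The nearest protein-coding genes lay outside the SPoCk span, CG7369 at 830 bp upstream and CG14448 at 808 bp downstream. By exon overlap, 2 isoforms touched CG7369 and 1 touched CG14448, and these did not reach into SPoCk. The span of CG14448 overlaps that of jim, and which of these genes that isoform belongs to was not tested. The long non-coding RNA gene CR45961 (22756796 to 22757328) lies between the first and second start of SPoCk, and no isoform overlapped it by an exon. On the minus strand 0 isoforms overlapped the SPoCk span.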

How the data were processed

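The authors deposited 1 annotation (GTF) of testis transcript models from 4 Iso-Seq libraries. Per the deposited file's name, TAMA merged the libraries, and correction, filtering (also through tappAS) and CDS prediction followed. The builds BDGP6 and dm6 come from the submitters' processing notes, and no aligner or setting is stated there. The deposited positions (1-based starts and ends) and reading frames are the only values and carry no sample, so the comparison of knockdown and control was not made and no test was run.

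SPoCk isoforms were plus-strand models with exon overlap of the RefSeq span (Release 6 plus ISO1 MT). Starts were joined at 100 bp and 3′ ends at 25 bp. UTRs are exon bases outside the CDS. Other genes were named from RefSeq spans (widened by 200 bp at each end) holding 50% or more of an isoform's span, on the strand of at least 80% of the isoform ends matching the gene. Pump and calcium genes were named by isoform number, up to 5 a list, and SERCA and PMCA always; marker genes by presence. Intervals are 95% Clopper-Pearson. Python 3.11.15, NumPy 2.4.6 and SciPy 1.17.1 were used. Counts of starts, ends, first donors and CDS starts were tested on simulated loci. The deposited reading frame followed from the lengths of the CDS parts in all 36534 coding isoforms of the catalogue. Introns behind the CDS, ends inside introns, skipped exons and UTR lengths were not part of that test. The gene, lists and measures were chosen with earlier results of these data known; the loci of similar isoform number were chosen after the values were seen.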

Additional observations from a re-analysis of the deposited data

How the results depend on the processing

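The 17 alternative settings of 6 results gave the following. The number of SPoCk isoforms was 20 under all 4 other rules for membership, and 2 of the 20 started at the outer 5′ end at distances of 50, 200 and 500 bp. First-exon groups numbered 6 by donor, 7 with starts joined at 10 bp, and 5 with starts joined at 100 bp or with donors of at least 2 isoforms. Clusters of 3′ ends numbered 9, against 13 exact positions, 10 at 10 bp and 8 at 100 bp, and 16 intron chains stayed 16 with splice positions joined at 10 bp. The 8 CDS versions became 6 when counted by start or by the usual stop alone. They became 5 when at least 2 isoforms had to share a version, since 3 versions, of 1986, 2958 and 2706 bp, each rest on 1 isoform. No paired analysis was possible because the catalogue carries no sample or replicate, and for the same reason no replicate could be left out. Depth is unknown, so a start, exon or end that is not listed cannot be read as absent from testes.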

Other observations

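The isoform numbers of the SPoCk locus rose with the position of the start and ran to 72, of which 20 (27.8%) were listed; over all loci, 35.2% of the numbers were listed. Of the 52 numbers that were not listed, 1 came before the first listed isoform, 11 fell between listed isoforms of 1 start group and 40 between groups. There were 16 between the third and the fourth start group, 13 between the fourth and the fifth, 8 between the first and the second and 3 between the second and the third. Isoforms with the same start also carried different numbers, so a number that falls between groups does not place a start there. What these numbers stood for is not given in the sources used here and was not tested.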
